A study of Mus musculus with 6 samples.

Results

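TRIM genes encode tripartite motif proteins, most of them ubiquitin ligases, and their transcripts were followed in THP-1 macrophages. THP-1 is a leukaemia cell line of human monocytic origin. The members were the genes of the deposited table whose symbol is TRIM, a number and at most further capital letters, which gave 73 of 20036 genes. They were split into 7 interferon-inducible members (TRIM5, TRIM14, TRIM21, TRIM22, TRIM25, TRIM34 and TRIM38) and 66 others. There were 3 melittin libraries and 3 NC libraries, where NC is the labels' own abbreviation and is not spelt out. The cells, grown under the porous insert of a Transwell dish, were differentiated with the phorbol ester PMA at 100 ng/ml for 48 h. For the melittin libraries, tumour cells were added to the insert and both shared medium for 48 h with 3 µg/ml melittin, a membrane-lytic peptide from bee venom. The design text does not say what the NC wells received or whether tumour cells stood above them, so melittin and the co-culture cannot be told apart. The organism label reads mouse, but all 20036 gene identifiers were human and the values are read as human.

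TRIM proteins carry a RING finger, which recruits a ubiquitin-conjugating enzyme, then B-box zinc fingers and a coiled coil, and differ mainly in the domain at their C-terminal end, which selects the substrate. Many act in antiviral defence: they bind viral capsids, or they attach ubiquitin chains to sensors of foreign RNA and DNA and to the adaptors of NF-kB and interferon signalling. A subset is transcribed in response to interferon, and in macrophages these are part of the interferon-stimulated programme. Others have housekeeping roles in chromatin, microtubules, the endoplasmic reticulum or protein quality control.

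Total counts ran from 16192032 to 19521897 in melittin libraries and from 16001423 to 19597781 in NC libraries. A single count was worth 0.0557 to 0.067 CPM in melittin libraries and 0.0471 to 0.0578 CPM in NC libraries. CPM is the count relative to library depth on the per-million scale, here with TMM factors, which allow for a difference in composition between libraries. Of the macrophage markers, SPI1 had 291.4 ± 6.92 CPM in melittin and 281.9 ± 4.01 CPM in NC libraries (SD, n = 3 each, as for each mean ± SD that follows), CSF1R had 235.1 ± 2.98 and 722.2 ± 10.2 CPM, and CD68 had 1 count over the melittin libraries and 0 over the NC libraries. Of 9 tested macrophage markers 3 rose and 5 fell, and the summed level of the 10 listed markers, without TMM factors, ran from 1131 to 1153 CPM in melittin and from 2124 to 2139 CPM in NC libraries. For tumour cells that might have crossed the membrane, 5 of 11 epithelial or prostate markers, EPCAM, KRT18, KRT19 and KLK2 among them, had 0 counts in all 6 libraries and KLK3 had 2 counts with melittin and 0 in NC. On the same scale the summed level of the 11 was 86.4 to 96.8 CPM in melittin and 71.5 to 75.6 CPM in NC libraries, and of the 3 that were tested 1 rose and 1 fell. The gene that fell, FOLH1, reached the test only through its NC libraries. Whether the differences in these markers have a part in the results on TRIM genes was not tested.

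More TRIM genes fell than rose with melittin. Of the 73 members 39 had enough counts to be tested, 20 of these were lower and 9 were higher in melittin than in NC libraries, and 10 did not pass (edgeR quasi-likelihood test, Benjamini-Hochberg adjustment over 12029 genes, threshold 0.05). The 9 include TRIM7, which reached the test only through its melittin libraries. Most genes of these cells changed: 76.4% of all tested genes passed, 38.3% as lower and 38.1% as higher, so the number of TRIM genes called was near the background while the division between directions was not even. The median log2 fold change of the tested members was −0.42, against −0.0069 over all tested genes. It was −0.20 without NC replicate 1 and −0.28 without melittin replicate 3, where 40 members were tested. By at least 2-fold, 5 members were lower (background 9.96%) and 2 were higher (background 9.53%). In 20 members all melittin values lay below all NC values and in 9 above, where the background was 39.1% and 38.3%, or 77.4% in either direction. Against a fold change of 1.5 rather than 0, 11 members were lower and 2 higher (background 14.4% and 14.6%). The numbers of lower and higher members were 25 and 5 without the TMM factors, which moved the median of all genes to −0.24 and called 51.9% of them lower and 26.3% higher. The labels do not say whether the libraries of a group are from separate cultures; the p-values therefore cover only the spread between libraries, and that spread may be technical.

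**Figure D1:**
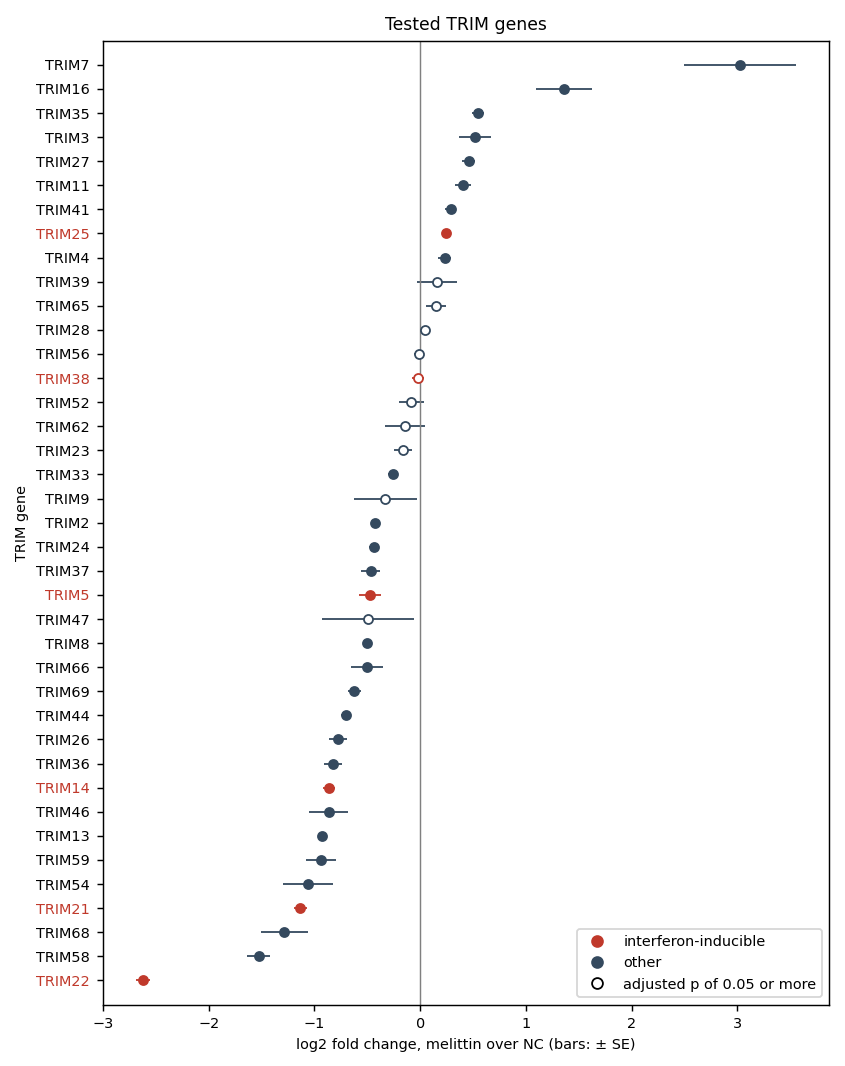
Log2 fold change of the 39 tested TRIM genes, melittin over NC, with the SE as a bar. Red marks the interferon-inducible members and open circles the 10 genes that did not pass; 20 filled circles lie left of 0 and 9 right of it, with TRIM22 at −2.62 and TRIM7 at 3.03 at the ends.

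As a share of RNA the family was smaller in melittin libraries. Without the TMM factors, the TRIM genes together had 1196, 1169 and 1181 CPM in melittin libraries, against 1694, 1687 and 1679 CPM in NC libraries. The groups did not overlap and the melittin mean was 70.1% of the NC mean. With the TMM scaling, the tested members summed to 1278 ± 10.6 CPM in melittin and 1555 ± 5.32 CPM in NC libraries, or 82.2%. The tested interferon-inducible members summed to 71.8% of their NC level and the others to 84.9%. In bulk RNA, fewer cells that express a gene and less of its RNA per cell cannot be told apart.

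The interferon-inducible members did not move as a block: 4 fell, TRIM25 rose, TRIM38 did not pass, and TRIM34 was too low to test. Of the 33 other members tested 16 fell and 8 rose, and the 8 include TRIM7, which reached the test only through its melittin libraries. The share called was 83.3% of the tested inducible members and 72.7% of the others, against 76.4% of all tested genes. Over all tested genes 38.3% were lower and 38.1% higher. The median log2 fold change was −0.67 over the 6 inducible members and −0.33 over the 33 others, and no test of this difference was made. The median of the others was −0.16 without NC replicate 1 and −0.22 without melittin replicate 3, with 34 tested in each case. Without the TMM factors the medians were −0.90 for the inducible members and −0.56 for the others. In FPKM, which is scaled by gene length, the 7 inducible members held 18.1, 18.4 and 18.8% of the family's sum in melittin libraries, against 24.9, 25.2 and 23.8% in NC libraries. These shares do not depend on how libraries are scaled to each other, and the groups did not overlap.

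TRIM22, a nuclear antiviral factor that represses retroviral transcription and is strongly induced by interferon, fell furthest of all tested TRIM genes. It had 10.9, 10.1 and 9.38 CPM in melittin libraries, against 62.4, 64.1 and 61.1 CPM in NC libraries, and was 6.16-fold lower (log2 fold change −2.62, SE 0.0688, edgeR adjusted p = 1.13e-22). Every melittin library was far below every NC library, and 106 of 12029 tested genes had a lower log2 fold change. The gene lies on chromosome 11 at 5689610 to 5737089 on the plus strand (GRCh38), inside the span of TRIM5 on the minus strand (5663195 to 5938619). No source used here gives the strand setting of the counting, so it is uncertain which of them reads in the shared stretch belong to.

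TRIM21, the cytosolic receptor that binds antibody on incoming viruses and is also known as the autoantigen Ro52, was 2.20-fold lower. It had 22.6, 23.3 and 24.5 CPM in melittin libraries, against 51.8, 53.0 and 49.3 CPM in NC libraries (log2 fold change −1.13, SE 0.0602, edgeR adjusted p = 1.02e-15). All melittin values were below all NC values. It overlaps no other gene of the table. TRIM14, which lacks a RING finger and serves as an adaptor of antiviral signalling at mitochondria, had 28.03, 30.8 and 29.6 CPM in melittin libraries, against 53.4, 55.8 and 51.8 CPM in NC libraries. These groups did not overlap either, and TRIM14 was 1.82-fold lower (log2 fold change −0.86, SE 0.0575, edgeR adjusted p = 1.52e-13). It overlaps NANS on the opposite strand, and 14 tested members in all overlap another gene of the table.

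TRIM5, which recognises the capsid of retroviruses, fell less. It had 12.5, 15.8 and 12.5 CPM in melittin libraries, against 21.4, 17.8 and 17.7 CPM in NC libraries, a log2 fold change of −0.48 (SE 0.101, edgeR adjusted p = 0.000128). The highest melittin value was near the lowest NC value, and TRIM5 did not pass the test against 1.5-fold.

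TRIM25, the ligase best known for attaching ubiquitin to the RNA sensor RIG-I, went the other way. It had 123.6, 111.9 and 122.0 CPM in melittin libraries, against 100.8, 101.5 and 98.3 CPM in NC libraries, a log2 fold change of 0.25 (SE 0.0388, edgeR adjusted p = 2.19e-06). The groups did not overlap, yet the call ended without the TMM factors (log2 fold change 0.016, edgeR adjusted p = 0.718). TRIM38, a negative regulator of Toll-like receptor and TNF signalling, had 37.3, 36.2 and 36.8 CPM in melittin libraries, against 36.8, 38.5 and 36.2 CPM in NC libraries. These values overlapped, with a log2 fold change of −0.017 (SE 0.0572, edgeR adjusted p = 0.794), and without the TMM factors TRIM38 passed as lower (−0.25, edgeR adjusted p = 0.000318). TRIM34, a close relative of TRIM5, had 2 counts over the melittin libraries and 1 over the NC libraries. It overlaps the read-through gene TRIM6-TRIM34 on the same strand, which was listed with 0 counts. TRIM6, which also overlaps the read-through gene, had 3 counts over the melittin libraries and 1 count over the NC libraries.

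**Figure D2:**
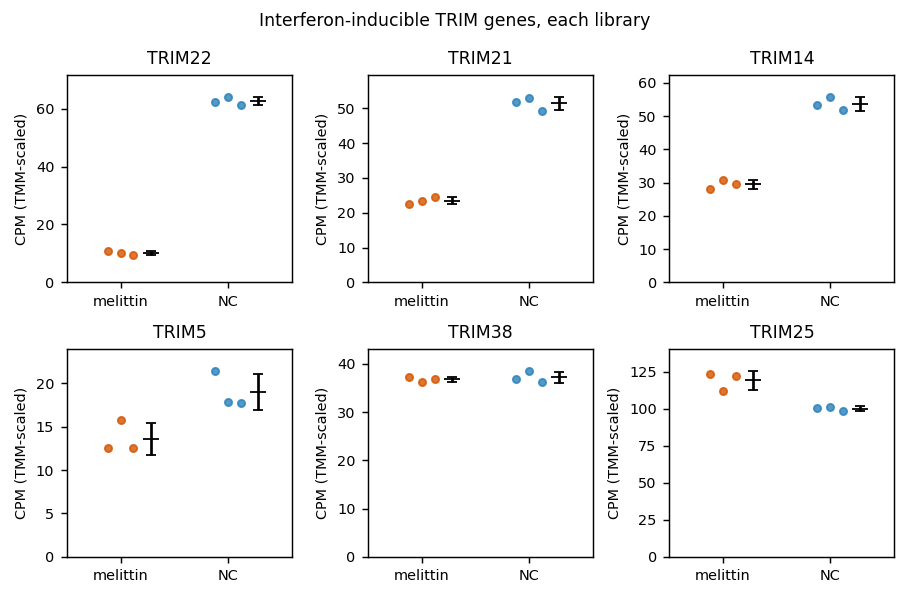
TMM-scaled CPM of the 6 tested interferon-inducible TRIM genes in each library (points), with mean ± SD over 3 libraries (black), melittin left of NC and each axis starting at 0. TRIM22, TRIM21, TRIM14 and TRIM5 are lower in all melittin libraries, TRIM38 overlaps, and TRIM25 is higher.

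Among the other members, ligases that act on innate signalling moved in both directions. TRIM26, known for degrading the transcription factor IRF3 in the nucleus, had 12.8, 11.9 and 12.1 CPM in melittin libraries, against 20.1, 21.1 and 21.8 CPM in NC libraries. It was 1.71-fold lower with no overlap (log2 fold change −0.78, SE 0.0855, edgeR adjusted p = 4.76e-09). TRIM44, which has no RING finger and is known to protect the adaptor MAVS from degradation, had 56.0 ± 3.57 CPM in melittin and 91.5 ± 2.09 CPM in NC libraries. TRIM8, a ligase for the kinase TAK1 downstream of TNF and IL-1 receptors, had 84.5, 89.8 and 83.2 CPM in melittin libraries, against 122.6, 117.4 and 125.3 CPM in NC libraries. TRIM8 was 1.42-fold lower, with a clear gap between the groups (log2 fold change −0.50, SE 0.0391, edgeR adjusted p = 4.66e-12), and did not pass against 1.5-fold. TRIM69 fell by 0.62 on the log2 scale.

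TRIM56, an antiviral ligase that is interferon-inducible in other cells, did not pass. It had 112.9, 98.7 and 111.7 CPM in melittin libraries, against 109.2, 109.7 and 106.1 CPM in NC libraries, and the groups overlapped (log2 fold change −0.012, SE 0.0422, edgeR adjusted p = 0.806). Without the TMM factors its log2 fold change was −0.24 and it passed. TRIM65, a ligase for the RNA sensor MDA5, and TRIM23, which carries an ARF GTPase domain, did not pass either (log2 fold changes 0.15 and −0.16). TRIM62, known to ubiquitinate the adaptor CARD9, and TRIM52 had log2 fold changes of −0.14 and −0.082 and did not pass. TRIM23 and TRIM52 passed as lower without the TMM factors (−0.39 and −0.31).

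TRIM4, another ligase for RIG-I, and TRIM35, which acts on IRF7 and on the glycolytic enzyme PKM2, were higher. TRIM35 had 46.6, 44.0 and 42.5 CPM in melittin libraries, against 29.1, 30.5 and 31.6 CPM in NC libraries (log2 fold change 0.55, SE 0.0596, edgeR adjusted p = 3.88e-09). All melittin values were above all NC values, and TRIM35 also passed without the TMM factors (0.32). TRIM4 had 46.4, 48.8 and 44.4 CPM in melittin libraries, against 39.4, 36.9 and 43.0 CPM in NC libraries, groups that came close to each other. Its log2 fold change of 0.23 (SE 0.0600, edgeR adjusted p = 0.00106) was 0.0012 without the TMM factors and −0.0034 on FPKM.

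The chromatin members TRIM24, TRIM33 and TRIM66, which like TRIM28 belong to the PHD and bromodomain class, fell, while TRIM28 did not pass. TRIM28, the corepressor that KRAB zinc finger proteins bring to DNA, had 146.8, 138.3 and 146.9 CPM in melittin libraries, against 132.4, 143.1 and 142.4 CPM in NC libraries. The groups overlapped (log2 fold change 0.047, SE 0.0358, edgeR adjusted p = 0.239), and without the TMM factors TRIM28 passed as lower (−0.18). TRIM33, which monoubiquitinates SMAD4, had 87.9, 96.0 and 103.4 CPM in melittin libraries, against 118.7, 111.2 and 112.9 CPM in NC libraries. Its log2 fold change of −0.26 (SE 0.0445, edgeR adjusted p = 1.02e-05) did not pass against 1.5-fold, nor did those of TRIM24 (−0.44) and TRIM66 (−0.50).

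TRIM13 and TRIM59, the 2 tested members with a membrane anchor, both fell. TRIM13, which sits in the endoplasmic reticulum and takes part in the disposal of its proteins, had 46.5, 47.0 and 45.0 CPM in melittin libraries, against 83.9, 88.9 and 90.3 CPM in NC libraries. It was 1.90-fold lower with a wide gap between the groups (log2 fold change −0.92, SE 0.0461, edgeR adjusted p = 2.54e-16), and shares a stretch on the same strand with KCNRG. TRIM59 had 4.55, 3.51 and 4.09 CPM in melittin libraries, against 7.68, 8.19 and 7.22 CPM in NC libraries, again without overlap (log2 fold change −0.94, SE 0.143, edgeR adjusted p = 1.36e-06).

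Members that bind microtubules through a COS box were lower where they could be called. TRIM36 had 12.7, 12.9 and 11.997 CPM in melittin libraries, against 22.5, 22.5 and 21.7 CPM in NC libraries, 1.77-fold lower with no overlap (log2 fold change −0.82, SE 0.0828, edgeR adjusted p = 8.22e-10). TRIM46, an organiser of parallel microtubules in axons, had 2.41, 3.01 and 3.62 CPM in melittin libraries, against 4.53, 6.22 and 5.72 CPM in NC libraries (log2 fold change −0.87, SE 0.181, edgeR adjusted p = 0.000106). TRIM46 did not pass against 1.5-fold (glmTreat adjusted p = 0.0652). TRIM54, a muscle member also called MURF3, had 1.76, 1.11 and 1.54 CPM in melittin libraries, against 3.15, 2.73 and 3.29 CPM in NC libraries (log2 fold change −1.06, SE 0.236, edgeR adjusted p = 0.000215). The fourth tested member of this class, TRIM9, had a log2 fold change of −0.33 (edgeR adjusted p = 0.315) and overlapping groups.

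TRIM58, known for removing dynein in maturing red cells, had the largest fall among the other members. It had 7.61, 5.90 and 5.83 CPM in melittin libraries, against 19.2, 18.4 and 18.1 CPM in NC libraries, 2.88-fold lower (log2 fold change −1.53, SE 0.107, edgeR adjusted p = 5.1e-13). TRIM68 came next with 1.24, 2.17 and 1.74 CPM in melittin libraries, against 4.13, 3.49 and 5.20 CPM in NC libraries (log2 fold change −1.28, SE 0.225, edgeR adjusted p = 1.06e-05). Its groups did not overlap, though TRIM68 had only 19 to 39 counts per melittin library. TRIM2 and TRIM37 fell by 0.42 and 0.47 on the log2 scale.

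The largest rises were in members of low level. TRIM16, which lacks a RING finger and takes part in the removal of damaged lysosomes and in oxidative stress responses, had 2.28, 2.28 and 2.55 CPM in melittin libraries, against 0.984, 0.942 and 0.809 CPM in NC libraries. It was 2.57-fold higher with no overlap (log2 fold change 1.36, SE 0.269, edgeR adjusted p = 5.48e-05) on 35 to 41 counts per melittin and 14 to 20 per NC library, and shares a stretch on the same strand with an unnamed gene of the table. TRIM7, which binds glycogenin, was chosen after its values were seen because its mean was under 1 CPM. It had 21, 24 and 24 counts in melittin libraries, against 9, 1 and 0 counts in NC libraries, so 9 of its 10 NC counts came from NC replicate 1. It entered the test through its melittin libraries alone, so that it had to differ, and its call is no support for a rise of the family. Its fitted log2 fold change was 3.03, and 5.44 without NC replicate 1, a value that rests on NC counts of 1 and 0 and is no bound.

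TRIM27, a nuclear and endosomal ligase, TRIM11, known for clearing misfolded proteins, and TRIM41, a ligase for protein kinase C, rose by smaller steps. TRIM27 had 55.0, 50.04 and 45.3 CPM in melittin libraries, against 36.0, 36.5 and 36.8 CPM in NC libraries (log2 fold change 0.46, SE 0.0612, edgeR adjusted p = 1.41e-07). TRIM11 had 25.6, 26.8 and 24.9 CPM in melittin libraries, against 20.9, 18.1 and 19.6 CPM in NC libraries (log2 fold change 0.40, SE 0.0761, edgeR adjusted p = 3.03e-05). In neither gene did the groups overlap. TRIM41 had 52.3, 52.8 and 54.0 CPM in melittin libraries, against 45.0, 43.2 and 41.7 CPM in NC libraries (log2 fold change 0.29, SE 0.0515, edgeR adjusted p = 1.27e-05). TRIM3, a member with NHL repeats, had 6.18, 6.01 and 7.57 CPM in melittin libraries, against 4.67, 4.95 and 4.04 CPM in NC libraries (log2 fold change 0.52, SE 0.147, edgeR adjusted p = 0.00245). Without the TMM factors TRIM27 and TRIM11 passed, while TRIM41 and TRIM3 did not (log2 fold changes 0.059 and 0.29). None of TRIM35, TRIM3, TRIM27, TRIM11, TRIM41, TRIM25 and TRIM4 passed the test against 1.5-fold.

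**Figure D3:**
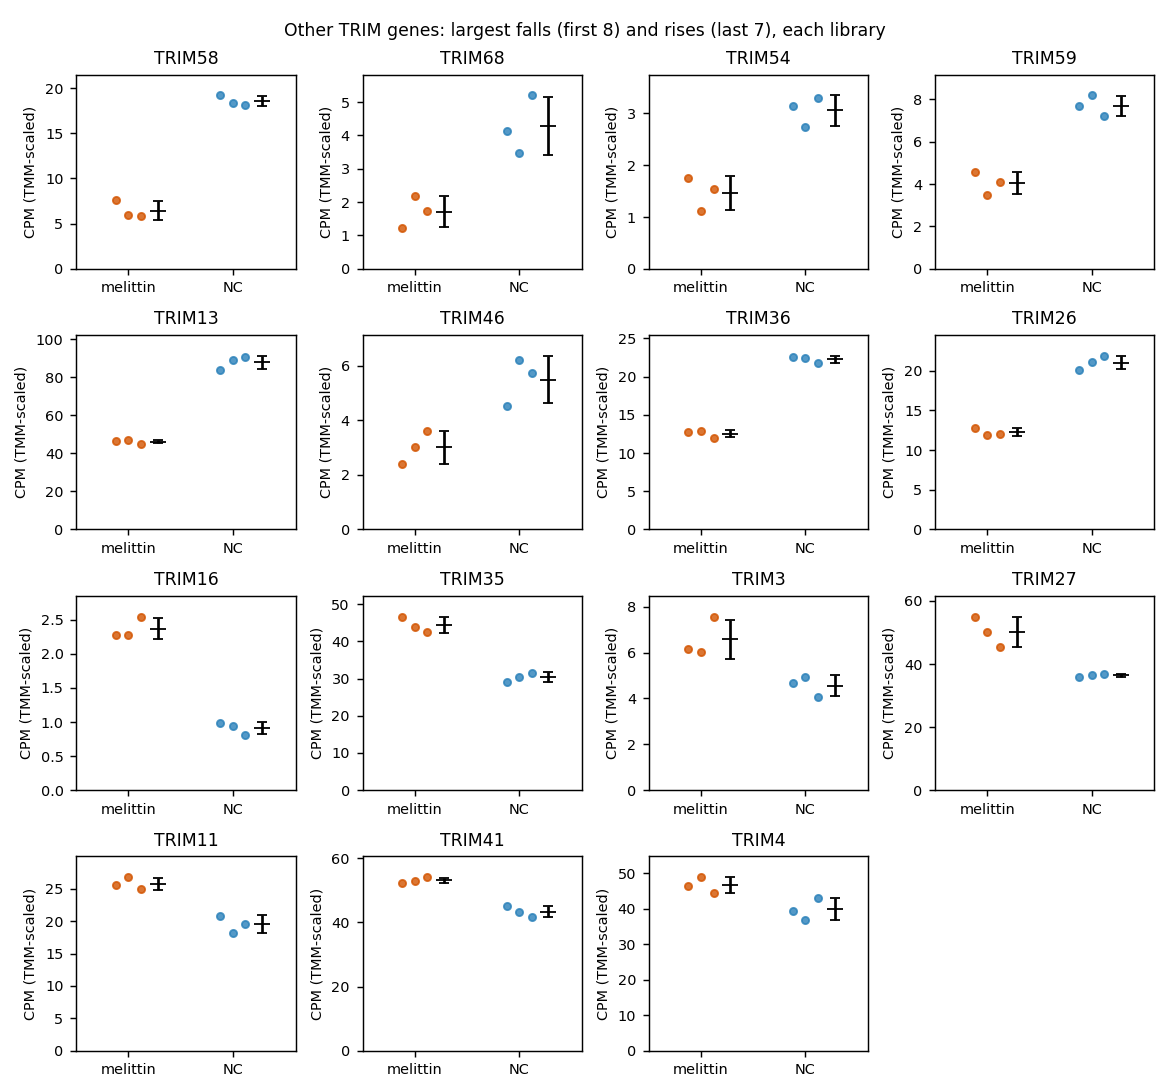
TMM-scaled CPM in each library (points) and mean ± SD over 3 libraries (black) for the other TRIM genes with the largest falls (8 panels, from TRIM58 to TRIM26) and rises (7 panels, from TRIM16 to TRIM4), melittin left of NC, each axis starting at 0. In each panel the 3 melittin values and the 3 NC values do not overlap.

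The tested members were also grouped by C-terminal domain, and no test between these classes was made. The class with a PRY-SPRY domain, a binding module, and no COS box holds all inducible members and 21 tested members. Of these 8 rose and 8 fell, 38.1% in each direction, the same as the background of 38.1% higher and near that of 38.3% lower, and the median log2 fold change was −0.017. Of the 9 TRIM genes that rose, 8 belong to this class, and TRIM3 is the exception. The 8 include TRIM7, which reached the test only through its melittin libraries and is no support for a rise. Within the class, the 6 inducible members had 4 falls and 1 rise. The 15 others had 4 falls (TRIM58, TRIM68, TRIM26 and TRIM69) and 7 rises, TRIM7 among them, with a median of 0.16. The other classes hold 2 to 4 tested members each. In those with 4 no gene rose: 3 of 4 fell with a COS box (median −0.85), 3 of 4 with a PHD finger and bromodomain (median −0.35) and 2 of 4 without any further domain (median −0.29). Of the 4 tested members without a RING finger, TRIM14, TRIM44 and TRIM66 fell and TRIM16 rose.

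**Figure D4:**
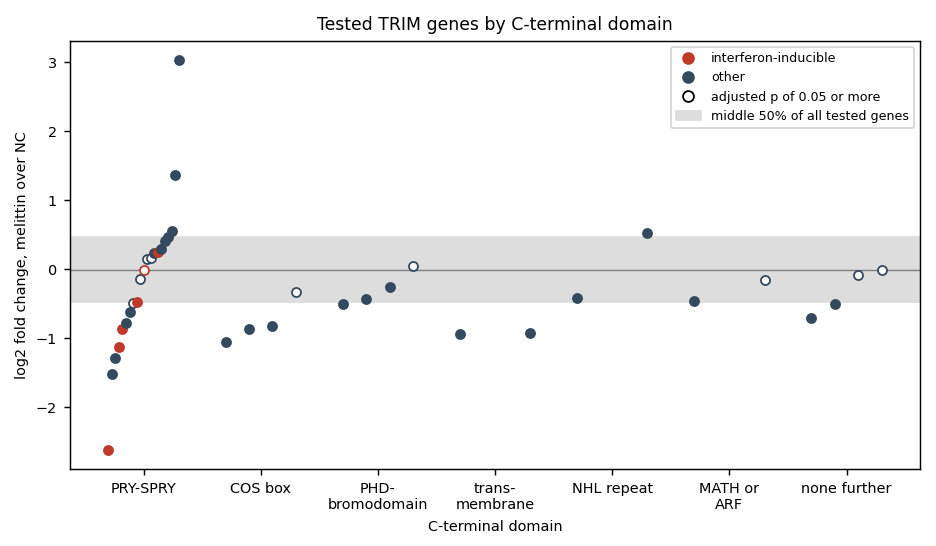
Log2 fold change, melittin over NC, of each tested TRIM gene by its C-terminal domain; red points are interferon-inducible, open points did not pass, and the grey band holds the middle 50% of all tested genes (−0.48 to 0.46). The class labelled PRY-SPRY, which leaves out COS box members, spans −2.62 to 3.03. The COS box and transmembrane members lie below 0, as do those with a MATH or ARF domain and those without any further domain.

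Per the Gene Ontology terms in the deposited table, 45 members are annotated to the innate immune response and 59 to ubiquitin protein ligase activity. Of 21 tested members with the immune term 10 fell and 5 rose, or 71.4% called against the background of 76.4%, with a median log2 fold change of −0.16. Among the members outside the inducible set, the median was −0.14 for 15 with the term and −0.43 for 18 without it. Across the 37 tested members with a mean of at least 1 CPM, the log2 fold change had a Spearman correlation of 0.080 with gene length and −0.10 with the NC level in FPKM, values that share the same libraries.

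By level per gene length, TRIM28 was the most abundant TRIM transcript. TRIM28 was listed at 30.8 ± 1.13 FPKM in melittin and 35.0 ± 1.49 FPKM in NC libraries, and made up 17.9 ± 0.59% of the family's FPKM in melittin and 14.0 ± 0.617% in NC libraries. TRIM21 held 6.49 ± 0.294% in melittin and 11.5 ± 0.41% in NC libraries, and TRIM22 0.433 ± 0.0309% and 2.16 ± 0.0477%. In NC libraries TRIM21 (28.8 ± 1.10 FPKM) ranked between TRIM28 and TRIM8 (26.3 ± 0.844 FPKM). In melittin libraries TRIM8 (15.8 ± 0.612 FPKM) stood above TRIM21 (11.2 ± 0.435 FPKM). Close to each other, TRIM35 (9.69 ± 0.486 FPKM), TRIM33 (9.20 ± 0.722 FPKM), TRIM56 (8.93 ± 0.671 FPKM), TRIM4 (8.89 ± 0.418 FPKM) and TRIM25 (8.86 ± 0.492 FPKM) followed. TRIM33 and TRIM56 had 12.9 ± 0.452 and 10.5 ± 0.203 FPKM in NC libraries.

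**Figure D5:**
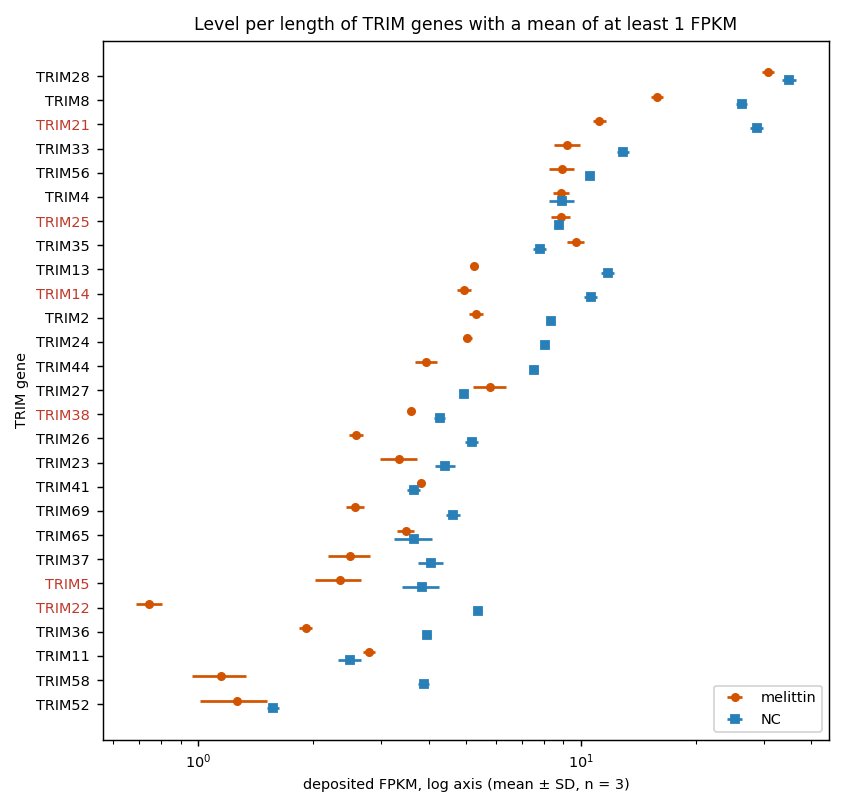
Deposited FPKM (mean ± SD, n = 3, log axis) of the TRIM genes with a mean of at least 1 FPKM over the 6 libraries, ordered by that mean, with melittin drawn above NC for each gene and interferon-inducible names in red. TRIM28 leads in both groups, and TRIM22 shows the widest gap, 0.746 against 5.39 FPKM. FPKM are scaled by gene length, so levels of different genes can be set beside each other. They carry no TMM factor, so all melittin points lie lower relative to NC than with it.

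Several members are neighbours on the chromosome. The stretch of chromosome 11 from 4384897 to 5938619 (GRCh38) holds TRIM21, TRIM68, TRIM6, TRIM34, TRIM5 and TRIM22. All 4 tested members there (TRIM21, TRIM68, TRIM5 and TRIM22) fell, with log2 fold changes from −2.62 to −0.48, where 38.3% of all tested genes were lower. TRIM3, further along the same chromosome at 6448613 to 6474459, rose. On chromosome 5 from 181193924 to 181261150, TRIM41 rose, TRIM52 did not pass, and TRIM7 was called higher on the few counts given above. On chromosome 6 from 30102897 to 30343729, near the genes of class I antigen presentation, TRIM26 fell, TRIM39 did not pass (log2 fold change 0.16, edgeR adjusted p = 0.460), and TRIM31, TRIM40, TRIM10 and TRIM15 were not tested. TRIM47 and TRIM65, side by side on chromosome 17, did not pass (TRIM47 log2 fold change −0.49, edgeR adjusted p = 0.304, on 4 to 23 counts per library). Of the 25 tested members that overlap no other gene of the table, 11 fell and 6 rose, TRIM7 among the 6. That is 68.0% called, against the background of 76.4%, with 38.3% lower and 38.1% higher.

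A further 34 members were not tested. Of these 17 had 0 counts in all 6 libraries, among them TRIM43, TRIM49 and TRIM64 and their lettered copies in the table. The other 17 had 55 counts or fewer over all libraries. TRIM17, the neighbour of TRIM11, had 1, 0 and 1 counts in melittin libraries, against 5, 3 and 3 counts in NC libraries, and TRIM45 had 9, 12 and 6 counts, against 2, 5 and 7 counts. The muscle members TRIM63 and TRIM55 had 0 counts with melittin and 3 and 2 counts in NC libraries, too few for a difference to be detectable at this depth.

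Of 6 family members known by other names, the 3 that were tested all rose, where 38.1% of all tested genes were called higher. MID2, a microtubule-binding relative, had 27.1 ± 1.97 CPM in melittin and 12.6 ± 1.31 CPM in NC libraries, 2.14-fold higher (edgeR adjusted p = 6.73e-12). MEFV, the pyrin gene of familial Mediterranean fever, had 31.5 ± 0.432 CPM in melittin and 17.4 ± 3.25 CPM in NC libraries. PML, which builds nuclear bodies and is induced by interferon in many cells, had 48.3 ± 2.16 CPM in melittin and 43.3 ± 0.395 CPM in NC libraries (log2 fold change 0.16), and did not pass without the TMM factors (−0.074).

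Genes of the interferon receptor pathway were lower in 7 and higher in 4 of 13 tested members, or 84.6% called, where 76.4% of all tested genes were called. The 4 include SOCS1, with 91 counts over the melittin libraries and 14 over the NC libraries. It reached the test only through its melittin libraries, so that it had to differ. Of the receptor kinases, JAK2 fell by 0.88 on the log2 scale, while JAK1 and TYK2 rose by 0.72 and 0.53. IFNB1, which encodes interferon beta, had 1 count with melittin and 3 counts in NC libraries and was not tested.

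Genes of cytosolic RNA and DNA sensing, the substrates and partners of several TRIM ligases, were lower in 6 and higher in 5 of 18 tested members, or 61.1% called against the background of 76.4%. IFIH1, which encodes MDA5, had 31.8 ± 0.874 CPM in melittin and 74.9 ± 1.42 CPM in NC libraries, and the kinase IKBKE had 11.3 ± 0.303 CPM in melittin and 27.6 ± 1.04 CPM in NC libraries. The adaptor MAVS fell by 0.41 and the transcription factor IRF3 rose by 0.67 on the log2 scale. RIG-I, listed under its older symbol DDX58, had 17 counts with melittin and 23 counts in NC libraries and was not tested. Without the TMM factors 12 of these genes were lower and 1 was higher.

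Ubiquitin-conjugating enzymes that work with RING ligases split evenly, with 5 higher and 5 lower of 11 tested (90.9% called, background 76.4%), against 0 higher and 6 lower without the TMM factors. UBE2N, which builds K63-linked chains, had 79.6 ± 0.976 CPM in melittin and 119.9 ± 0.323 CPM in NC libraries. UBE2D4 fell by 1.79 and UBE2E1 by 0.50 on the log2 scale, and UBE2D3 rose by 0.25 but did not pass with that scaling (0.015). Partners of TRIM28 in gene silencing rose in 3 and fell in 4 of 10 (70.0% called), and 1 rose and 8 fell without the TMM factors. Among them the deacetylase HDAC1 had 67.5 ± 2.60 CPM in melittin and 133.0 ± 2.17 CPM in NC libraries, HDAC2 fell by 0.24 and CBX3 rose by 0.29 on the log2 scale. Selective autophagy partners rose in 5 and fell in 2 of 9 (77.8% called), and 4 rose and 3 fell without the TMM factors. GABARAPL2 had 182.5 ± 2.12 CPM in melittin and 95.2 ± 0.7 CPM in NC libraries, and MAP1LC3B, ULK1 and GABARAPL1 rose by 0.70, 0.52 and 0.92 on the log2 scale.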

How the data were processed

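Total RNA libraries were sequenced from 3 melittin and 3 NC samples of PMA-differentiated THP-1 cells. The deposited table holds raw read counts per gene, per the file headers, with the authors' FPKM beside them; these FPKM equal the count divided by gene length and library total. Per the submitters' processing notes the build was GRCh38; no source used here gives the aligner, the counter or the strand setting. A second deposited table repeats the FPKM and was not used further.

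Counts were filtered with filterByExpr, TMM-scaled and tested with edgeR 4.0.16 (quasi-likelihood, R 4.3.3), with Benjamini-Hochberg adjustment over all 12029 tested genes and a threshold of 0.05. SE is the log2 fold change divided by the square root of F. The fit was tested on simulated data. Alternatives used other scalings, filters, limma 3.58.1 and DESeq2 1.42.0, a replicate block, a test against 1.5-fold, limma on log2(FPKM + 0.1), and each library left out. The members, classes and gene lists were chosen with earlier results of these data known. Named with full values were the 7 inducible members (TRIM34 by its counts), the 5 highest by FPKM and other called members with the largest changes (8 falls, 7 rises). The latter had at least 1 CPM and groups that did not overlap. Other members that did not pass were named with fewer values, some with the log2 fold change alone. Of each gene list, up to 4 with the smallest adjusted p were named, also with fewer values. FPKM divide by the library total, so a shift in composition moves all of them. Members with few counts are measured with little precision at this depth. Values of some genes in the marker and pathway lists are not reported here.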

Additional observations from a re-analysis of the deposited data

How the results depend on the processing

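The 29 TRIM calls (20 lower, 9 higher) numbered 28 to 30 under other scalings, filters and tools and with each library left out, but 13 against 1.5-fold, where the interferon-inducible members gave 3, the others 10 and all genes 3495. The median log2 fold change of the inducible members was −0.90 with library totals alone, −0.89 on FPKM and −0.49 with no filter, where TRIM34 enters on 3 counts. That of the others was −0.56 with library totals alone and −0.44 on FPKM, and −0.39 to −0.16 with each library left out, where 33 to 35 were tested. Both first settings lack a composition factor and lower the median of all genes to −0.24 and −0.21. They turned the sign of genes that had not passed: TRIM28 (−0.18 in both), TRIM39 (−0.072 and −0.073) and TRIM65 (−0.080 and −0.067); TRIM4 turned on FPKM (−0.0034). With each library left out, TRIM38 ran from −0.039 to 0.0060, TRIM52 from −0.20 to 0.059 and TRIM56 from −0.051 to 0.050. Each value of a single gene under an alternative was counted once, with a turn of sign taken first. In this count 10 turned sign, 19 others lost their call, 7 others passed newly and 458 kept sign and call. Losses under the test against 1.5-fold, a stricter question, are among the 19. The cause was not tested.

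No pairing by replicate number was seen: deviations of same-numbered libraries had correlations of −0.0461, 0.0178 and −0.0191. With 3 libraries per group, whose deviations hold much counting noise, these values cannot exclude a pairing. With the replicate block 29 TRIM genes passed, 5 of them inducible and 24 others, with medians of −0.67 and −0.30, and 9050 genes in all. Members with few counts, such as TRIM7, are measured with little precision at this depth. Of the 34 untested members 17 had 0 counts in all libraries, and why counts were low or absent was not tested.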
